A study of Homo sapiens with 2 samples.

Results

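The set of 10 genes for plasma proteins of the acute phase response was examined in HepG2 cells, a line from a human hepatocellular carcinoma: CRP, SAA1, SAA2, SAA4, HP, HPX, ORM1, ORM2, LBP and CP. They were taken as a fixed list of symbols, matched through their Ensembl identifiers to 10 of the 60623 entries of the count files. The study modelled hepatic steatosis by giving the cells free fatty acids (FFA, oleic and palmitic acid bound to albumin). It asked how such cells responded to 9-cis-RA, the 9-cis isomer of retinoic acid. This compound is a ligand of retinoid X receptors and, as the paper states, also activates retinoic acid receptors. The FFA library came from wild-type cells given 1 mM FFA for 24 h, and the FFA + 9-cis-RA library from wild-type cells given 1 mM FFA with 10 μM 9-cis-RA for 24 h. Both libraries therefore carried the fatty acid load, both were recorded as batch 1, and no library of cells without FFA was analysed here. Each group was 1 library of poly(A)+ RNA, so the spread between cultures is unknown, every difference below is a difference between these 2 libraries, and no test of the treatment could be made.

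The acute phase response is the change in plasma proteins that follows infection or injury, and the hepatocyte is its main source. Interleukin-6 acts through the shared receptor subunit gp130 and the transcription factor STAT3, and interleukin-1 and tumour necrosis factor act through NF-κB, with C/EBP factors acting downstream of both routes. Proteins whose plasma level goes up are called positive acute phase proteins, as all the genes examined here are usually classed except SAA4, the constitutive serum amyloid A, and those that go down, such as albumin, are called negative.

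The libraries held 60821539 counts (FFA) and 57669670 counts (FFA + 9-cis-RA), of which mitochondrial genes took 10.4% and 9.96%. At this depth 3 counts, used as the floor of detection, corresponded to 0.0493 and 0.0520 CPM (counts scaled to library size). The retinoid-responsive gene CYP26A1, which encodes a retinoic acid hydroxylase, had 4 counts in FFA and 709 in FFA + 9-cis-RA, and was thus higher in the library labelled with the retinoid. Of 7 hepatocyte markers all 7 were kept for comparison, and their summed level was 13425 and 11237 TPM (transcript abundance per exon length, scaled to library size). The summed macrophage markers stood at 0.449 and 0.607 TPM. Among them CD163 had 34 counts in FFA and 24 in FFA + 9-cis-RA. CD68 had 5 and 15, CSF1R 4 and 1, and PTPRC 0 in both. The endothelial markers stood at 1.35 and 0.883 TPM. The stellate or fibroblast markers stood at 19.7 and 14.0 TPM, mainly from ACTA2. RGS5 had 57 counts in each library, PDGFRB 37 and 21, and DCN 0 in both. In bulk RNA, fewer cells of a type and less RNA per cell cannot be told apart.

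The levels of the members depend on whether a fragment can be assigned to 1 gene, since the authors left out reads with more than 1 mapping place and reads lying over more than 1 gene. ORM1 (chr9:114323056-114326475, plus strand, GRCh38) and ORM2 (chr9:114329869-114333256, plus strand) are neighbouring genes with 6 exons in the transcript used, and their coding sequences differ at 31 of 603 bases (94.9% identity). The first 150 coding bases are the same in both, whereas coding bases 254 to 403 hold 25 of the differences. These stretches are shown because they mark where a fragment can and cannot tell the pair apart. They were taken from the GENCODE release 29 transcripts, and capitals mark the bases at which the pair differ.
ORM1 and ORM2, coding bases 1 to 150: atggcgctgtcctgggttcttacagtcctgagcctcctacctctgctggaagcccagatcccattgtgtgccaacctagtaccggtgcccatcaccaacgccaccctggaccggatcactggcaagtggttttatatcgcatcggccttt
ORM1, coding bases 254 to 403: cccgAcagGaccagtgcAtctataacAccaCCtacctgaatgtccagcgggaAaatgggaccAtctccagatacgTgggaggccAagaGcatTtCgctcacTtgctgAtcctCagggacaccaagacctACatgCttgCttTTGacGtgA
ORM2, coding bases 254 to 403: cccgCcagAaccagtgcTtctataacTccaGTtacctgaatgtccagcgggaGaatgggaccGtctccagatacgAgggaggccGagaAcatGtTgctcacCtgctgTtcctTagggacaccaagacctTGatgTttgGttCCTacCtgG

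SAA1 (chr11:18266260-18269977, plus strand) and SAA2 (chr11:18239223-18248643, minus strand) are closer still, with 11 of 366 coding bases different (97.0% identity). Coding bases 174 to 323 hold 10 of these 11 differences, again in capitals.
SAA1, coding bases 174 to 323: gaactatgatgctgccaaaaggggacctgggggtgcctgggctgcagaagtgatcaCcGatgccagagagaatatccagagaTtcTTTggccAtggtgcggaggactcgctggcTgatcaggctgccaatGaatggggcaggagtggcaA
SAA2, coding bases 174 to 323: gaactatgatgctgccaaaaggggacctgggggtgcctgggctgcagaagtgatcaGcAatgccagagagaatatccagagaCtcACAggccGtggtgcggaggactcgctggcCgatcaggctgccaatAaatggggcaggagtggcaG

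SAA4 (chr11:18231355-18236802, minus strand) shares 73.5% of its aligned coding bases with each of them. Over all 10 members, the share of 100-base transcript windows that occur letter for letter in another gene, leaving out the read-through gene SAA2-SAA4, was 37.2% for SAA1, 36.4% for SAA2, 33.7% for ORM1, 35.9% for ORM2, 12.9% for HP and 1.09% for CP, and 0 for CRP, SAA4, HPX and LBP. The partner was the other gene of the pair for the SAA and ORM genes and HPR for HP. SAA2-SAA4, which joins the exons of its neighbours, was counted by position instead: 75.6% of the exon bases of SAA4 (476 of 630) lie under it on the same strand. The same gene and RNA5SP333 cover 14.3% of the exon bases of SAA2, RNA5SP334 covers 7.18% of those of SAA1, and the other 7 members have no such overlap. The read length is not given in the sources used here, so the share of fragments lost in this way is not known.

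**Figure D1:**
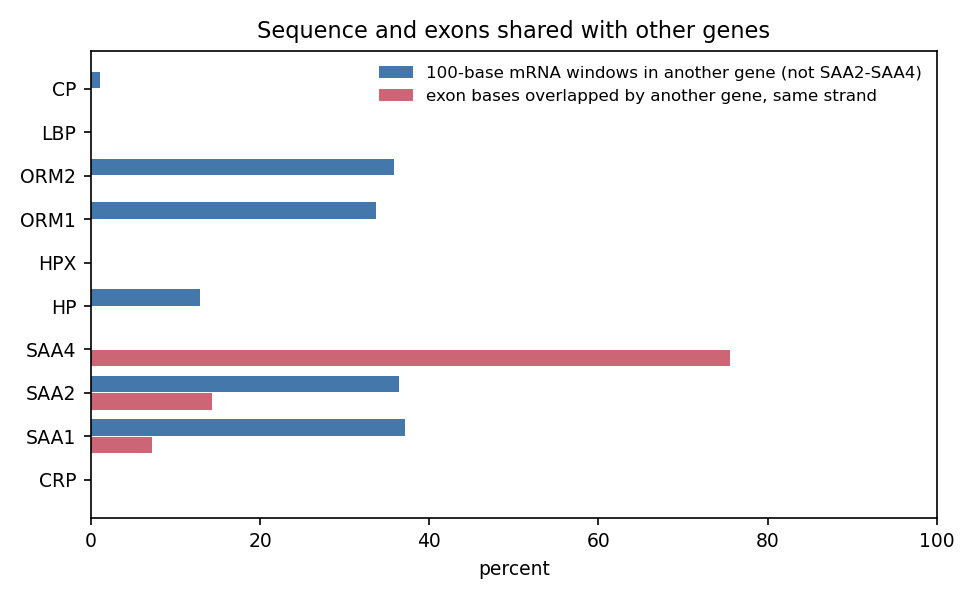
Share of each gene, in percent, that is also found elsewhere: 100-base windows of the transcript that occur in another gene, the read-through gene SAA2-SAA4 left out (blue), and exon bases under another gene on the same strand (red), for the 10 members. SAA1, SAA2, ORM1 and ORM2 each share between 33.7% and 37.2% of their windows, and SAA4 has 75.6% of its exon bases under another gene.

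The 10 genes covered a wide range of levels. Together they took 35025 counts in FFA, 0.0576% of the library (exact 95% Clopper-Pearson interval 0.0570 to 0.0582%), and 29665 counts in FFA + 9-cis-RA, 0.0514% (0.0509 to 0.0520%). The intervals given here and below cover counting error only. ORM1 and ORM2 supplied 92.9% and 95.3% of these counts. Per exon length, the order in FFA was ORM1, ORM2, HP, SAA4, HPX, CP, SAA2 and LBP, with SAA1 and CRP at 0 counts. In FFA + 9-cis-RA it was ORM1, ORM2, HP, HPX, SAA4, CP and SAA2, with LBP, SAA1 and CRP at 0 counts. The counting intervals of ORM1, ORM2 and HP were apart from all others in both libraries. Those of SAA4 and HPX overlapped in both libraries, as did those of CP and SAA2 and of SAA2 and LBP in FFA and of SAA4 and CP in FFA + 9-cis-RA, so these neighbours could not be ordered at this depth.

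**Figure D2:**
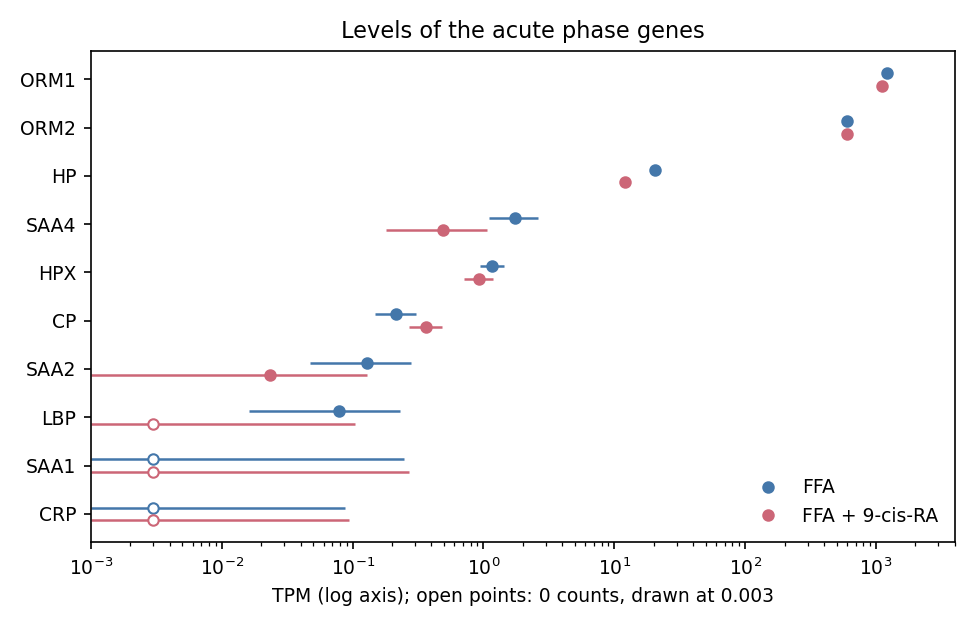
Level of each acute phase gene in TPM (log axis) in the FFA library (blue) and the FFA + 9-cis-RA library (red), with lines for exact 95% counting intervals; open points have 0 counts and are drawn at 0.003, and intervals that reach 0 end at the axis. ORM1 lies above 1000 TPM in both libraries, and CRP and SAA1 have 0 counts in both.

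For the comparison between the libraries, counts were divided by DESeq2 size factors, and log2 fold changes (FFA + 9-cis-RA against FFA) were taken with a pseudocount of 1 for 20431 genes whose 2 counts summed to 10 or more. Of the 10 members, 6 passed this minimum: ORM1, ORM2, HP, HPX, SAA4 and CP. SAA2 (7 counts), LBP (3 counts), SAA1 and CRP (0 counts each) did not. Of the 6, 5 were lower and 1 was higher with 9-cis-RA, beside 10680 lower and 9751 higher of the 20431 genes compared. SAA4 alone lay past a log2 fold change of -1, beside 4.90% of all genes compared, and none lay above 1, beside 3.37% of all genes. Counting intervals lay wholly below 0 for 4 members (25.7% of all genes) and wholly above 0 for 1 (22.5% of all genes), and that of HPX included 0. The median log2 fold change of the 6 was -0.31, beside -0.020 for all genes compared, whose quartiles were -0.26 and 0.18. Since a gene with many fragments has a narrow counting interval, an interval apart from 0 says that the libraries differ, not that cultures given the treatment would.

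**Figure D3:**
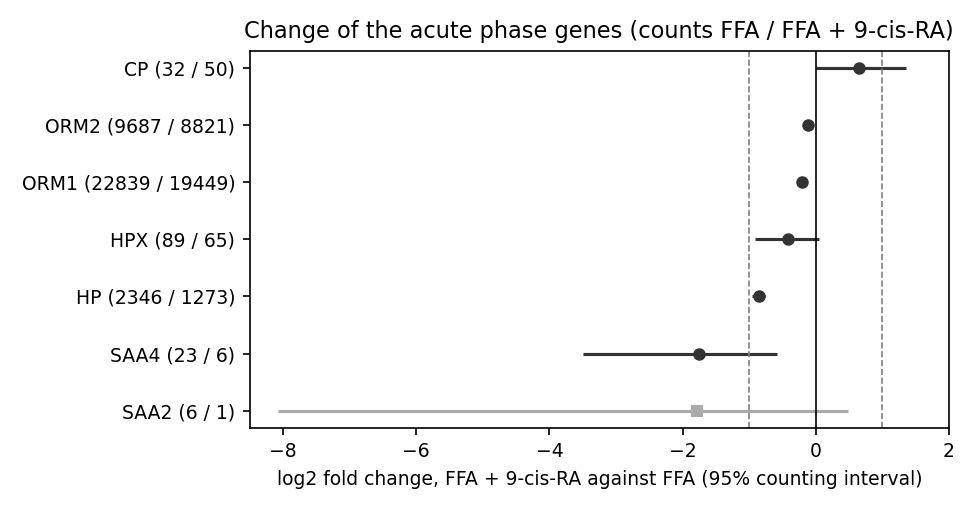
Log2 fold change of FFA + 9-cis-RA against FFA for the 6 members with at least 10 counts (black) and for SAA2 (grey, 7 counts), with exact 95% counting intervals; the counts of both libraries stand beside each symbol and dashed lines mark -1 and 1. HP, ORM1, ORM2 and SAA4 have intervals wholly below 0, and CP lies above 0.

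CRP, the pentraxin that binds phosphocholine on microbes and damaged cells, was not detected. The gene (chr1:159712289-159714589, minus strand, 2 exons in the transcript used) had 0 counts in FFA and 0 in FFA + 9-cis-RA. The floor of 3 counts lies at 0.0709 TPM in FFA and 0.0770 TPM in FFA + 9-cis-RA, and the exact 95% interval of a count of 0 reaches 0.0872 and 0.0947 TPM. No 100-base window of its transcript occurs in another gene, and none of its exon bases is overlapped.

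The serum amyloid A genes encode small apolipoproteins of high-density lipoprotein. SAA1, one of the strongly inducible forms, had 0 counts in both libraries, with the floor at 0.201 and 0.218 TPM and exact 95% upper bounds of 0.248 TPM in FFA and 0.269 TPM in FFA + 9-cis-RA. SAA2, the other inducible form, had 6 counts in FFA (0.128 TPM, 95% interval 0.0471 to 0.279) and 1 count in FFA + 9-cis-RA (0.0232 TPM, 0.000588 to 0.129). Both values were close to the floor of 3 counts, and the interval of the log2 ratio, from -8.08 to 0.49, included 0. SAA4, the constitutive form, had 23 counts in FFA (22.8 normalized) and 6 in FFA + 9-cis-RA (6.06 normalized). Its level was 1.74 TPM (1.10 to 2.61) in FFA and 0.492 TPM (0.181 to 1.07) in FFA + 9-cis-RA, intervals that did not overlap. The log2 fold change was -1.75 with an interval from -3.50 to -0.57, so the data allow a change smaller than the threshold. Among the 4514 genes with 10 to 49 counts, a value below -1 was more common than among all genes, at 14.2%. With the same counts divided by only the 154 exon bases of SAA4 that no other gene covers, the level became 7.12 TPM in FFA and 2.01 TPM in FFA + 9-cis-RA. SAA2-SAA4, the read-through gene over both, had 0 counts in each library, and none of its exon bases is free of SAA2 or SAA4, so it could not be counted. SAA3P, the pseudogene of the family, also had 0 counts in both.

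Haptoglobin and hemopexin clear the products of lysed red cells, HP by binding free haemoglobin and HPX by binding haem. HP (chr16:72054505-72061055, plus strand) had 2346 counts in FFA and 1273 in FFA + 9-cis-RA, or 2324 and 1285 normalized counts. Its level was 20.4 TPM (19.5 to 21.2) in FFA and 11.99 TPM (11.3 to 12.7) in FFA + 9-cis-RA. With the longest annotated transcript as length, it became 37.0 TPM in FFA and 21.8 TPM in FFA + 9-cis-RA. The intervals do not cover this choice of length. The normalized count with 9-cis-RA was 0.553 of that without, 44.7% lower, a log2 fold change of -0.85 (-0.95 to -0.76). This was the largest difference among the members with over 1000 counts in a library, and it stayed short of -1. Among the 10298 genes with at least 1000 counts, whose median log2 fold change was 0.0062, the value of HP stood at percentile 1.21 from the lowest. The 7 hepatocyte markers had a median log2 fold change of -0.19, with 5 lower and 2 higher in the same library. Their values ran from -0.99 for AFP, which encodes alpha-fetoprotein, and -0.70 for ALB, which encodes albumin, over -0.27 for TTR, -0.19 for TF and -0.14 for HNF4A, to 0.036 for SERPINA1 and 0.039 for APOA1; their part in the difference of HP was not tested.

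HPR, the haptoglobin-related gene next to HP (chr16:72063148-72077246, plus strand), encodes a protein that circulates on high-density lipoprotein, and shares 95.6% of the aligned coding bases. It had 644 counts in FFA and 407 in FFA + 9-cis-RA, with a log2 fold change of -0.63. HPR supplied 21.5% (20.1 to 23.1%) of the counts of the pair in FFA and 24.2% (22.2 to 26.3%) in FFA + 9-cis-RA, intervals that overlapped. Both genes were lower in the same library. HPX (chr11:6431049-6442617, minus strand, 10 exons in the transcript used) was far less abundant than HP, with 89 counts in FFA and 65 in FFA + 9-cis-RA. These were 1.17 TPM (0.938 to 1.44) and 0.926 TPM (0.714 to 1.18), and the log2 fold change of -0.42 had an interval from -0.91 to 0.052. A difference of HPX was not detectable at this depth.

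The orosomucoids, or alpha-1-acid glycoproteins, are plasma lipocalins that bind drugs and modulate immune cells, and they were the abundant members. ORM1 had 22839 counts in FFA and 19449 in FFA + 9-cis-RA, or 22621 and 19636 normalized counts. Its level was 1208 TPM (1192 to 1224) in FFA, rank 60 of all entries, and 1116 TPM (1101 to 1132) in FFA + 9-cis-RA, rank 68. ORM2 had 9687 and 8821 counts, with 9595 and 8906 after normalization. It stood at 604 TPM (592 to 616) in FFA, rank 138, and 597 TPM (585 to 610) in FFA + 9-cis-RA, rank 139, so its intervals on this scale overlapped.

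On the scale of size factors both orosomucoids were slightly lower with 9-cis-RA, ORM1 by a log2 fold change of -0.20 (-0.23 to -0.18) and ORM2 by -0.11 (-0.15 to -0.066). Both values lay between the quartiles of all genes, at percentiles 29.4 and 39.1. Among the 10298 genes with at least 1000 counts, whose quartiles were -0.14 and 0.13, ORM1 stood at percentile 17.6, outside the quartiles, and ORM2 at percentile 29.7. The sum of the pair, which does not depend on how fragments were split between them, had 32526 counts in FFA and 28270 in FFA + 9-cis-RA and a log2 fold change of -0.17 (-0.20 to -0.15). ORM2 supplied 29.8% (29.3 to 30.3%) of the counts of the pair in FFA and 31.2% (30.7 to 31.7%) in FFA + 9-cis-RA. These intervals did not overlap, although the shares differed little, and both shares hold only the fragments that could be assigned to 1 gene.

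LBP and CP were at the low end. LBP (chr20:38346482-38377013, plus strand, 15 exons in the transcript used) encodes the protein that carries bacterial lipopolysaccharide to CD14, and had 3 counts in FFA and 0 in FFA + 9-cis-RA. Both are at or under the floor, and no fold change is given. CP (chr3:149162410-149221829, minus strand, 19 exons in the transcript used) encodes ceruloplasmin, the copper-carrying ferroxidase of plasma. It had 32 counts in FFA and 50 in FFA + 9-cis-RA, or 0.216 TPM (0.147 to 0.304) and 0.366 TPM (0.271 to 0.482), intervals that overlapped. CP was the one member that was higher with 9-cis-RA, with a log2 fold change of 0.65 whose interval from 0.0028 to 1.36 began just above 0.

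**Figure D4:**
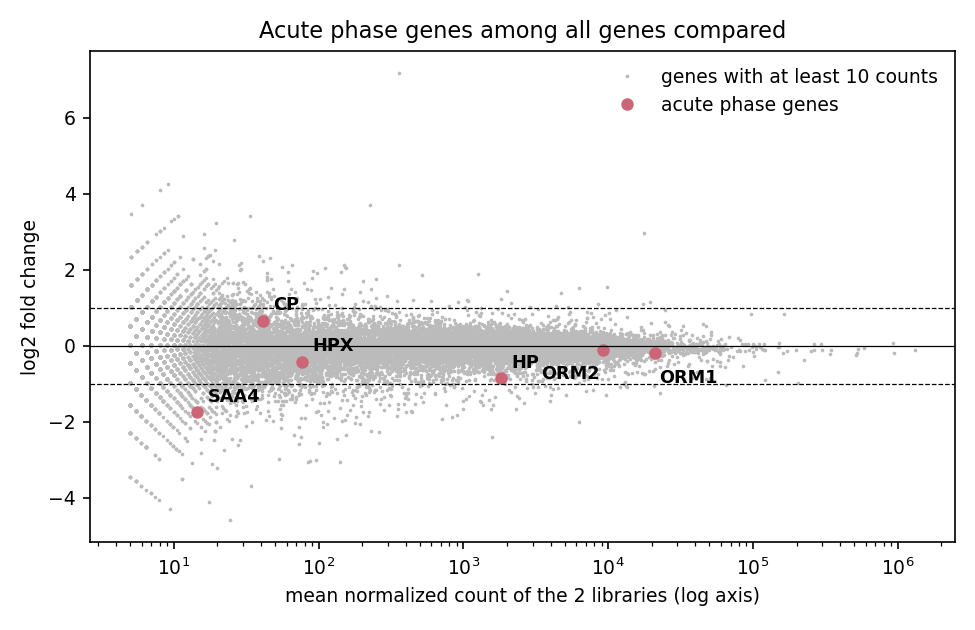
Log2 fold change of FFA + 9-cis-RA against FFA plotted over the mean normalized count of the 2 libraries (log axis) for 20431 genes (grey), with the 6 acute phase genes that passed the count minimum in red and dashed lines at -1 and 1. SAA4, at the low-count end where grey points spread widely, lies below -1, and HP lies near the lower edge of the genes at its level.

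Letters of response elements were searched on both strands in the RefSeq promoter table (GRCh38.p14; 250 bases before to 50 after each start), which held 4 of the 10 members (CRP, SAA4, HPX and ORM1) among 35116 promoters. TTGCNNAA, for C/EBP, was found in SAA4 and HPX and in 10.5% of all promoters. GTTAAT, part of the HNF1 element, was found in SAA4 and in 6.88% of all. AGGTCA, the core that nuclear receptors for retinoids bind, was found in HPX and in 13.8% of all. Pairs of it in the same orientation, spaced by 1, 2 or 5 bases, were found in none of the 4 members. Such pairs occurred in only 8, 1 and 2 of all 35116 promoters, so their absence from 4 promoters says little about these genes. TTCNNNGAA, for STAT3, and GGGANTTTC, for NF-κB, were found in none of the 4 and in 7.66% and 1.28% of all promoters. The 250 bases before the start are shown for the promoters of the list with a match, as context for genes that were low in both libraries. Capitals mark the matches, which are descriptions of letters and not of bound sites.
SAA4, chr11:18236803-18237052, minus strand: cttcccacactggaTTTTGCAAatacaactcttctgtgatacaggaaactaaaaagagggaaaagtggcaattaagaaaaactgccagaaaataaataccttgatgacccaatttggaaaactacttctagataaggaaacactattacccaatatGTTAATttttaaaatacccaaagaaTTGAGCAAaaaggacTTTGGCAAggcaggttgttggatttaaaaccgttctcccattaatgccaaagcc
HPX, chr11:6440988-6441237, minus strand: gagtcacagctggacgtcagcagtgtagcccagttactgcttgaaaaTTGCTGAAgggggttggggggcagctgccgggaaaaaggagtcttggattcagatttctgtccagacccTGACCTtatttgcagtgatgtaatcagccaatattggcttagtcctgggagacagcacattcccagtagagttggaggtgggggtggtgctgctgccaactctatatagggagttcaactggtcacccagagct
In SAA4 the C/EBP letters began at positions -236, -69 and -54 from the start, all on the other strand, and GTTAAT at -94. In HPX the C/EBP letters began at -203 and AGGTCA, on the other strand, at -134.

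The upstream genes of the response were compared through lists. Of 12 cytokine ligands, 7 passed the count minimum, 3 higher and 4 lower, with a median log2 fold change of -0.16; TNF had 17 counts in FFA and 36 in FFA + 9-cis-RA, 1.07 (0.24 to 2.03), the only one past 1 or -1. The 3 most abundant were LIF, which signals through gp130 (2481 and 2061 counts, -0.24), TGFB1 (2336 and 2056, -0.16) and CLCF1, another ligand of the gp130 family (377 and 385, 0.058). IL6, IL1A and IL1B, which encode the cytokines that induce most of the members, and IL22 had 0 counts in both libraries. Genes for receptors of cytokines and glucocorticoids were also compared, and the 3 most abundant are named. Of 13 receptor genes 12 passed, with none past 1 or -1 and a median of -0.055. IL6ST, which encodes gp130, had 9344 and 9038 counts (-0.020), IL1R1 had 6223 and 5912 (-0.046) and TNFRSF1A had 5785 and 7403 (0.38). All 22 genes of JAK-STAT3 and NF-κB signalling passed, 13 higher and 9 lower, with a median of 0.052 and none past 1 or -1. Their values ran from -0.86 for TNFAIP3 (4953 and 2677 counts) to 0.80 for SOCS3 (80 and 137 counts). The 15 transcription factors of acute phase genes had a median of -0.14, with 4 higher and 11 lower and none past 1 or -1. Their values ran from -0.83 for CEBPD (918 and 505 counts) to 0.68 for EGR1 (3244 and 5087 counts). The more abundant CEBPA stood at 0.083 and HNF4A at -0.14. The receptor genes named here were well above the floor in both libraries. How the levels of ligands and receptors relate to the 0 counts of CRP and SAA1 was not tested.

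Like the 6 members compared, of which 5 were lower and 1 was higher, the other genes of the class lay on both sides of 0. Of 22 other positive acute phase genes, 19 passed the minimum, 8 higher and 11 lower, with a median of -0.15. Past 1 lay 2 fibrinogen chains, the precursors of the fibrin clot: FGA had 5044 counts in FFA and 14333 in FFA + 9-cis-RA (1.53) and FGG 12215 and 26421 (1.14). ITIH4, with 9 and 3 counts, lay below -1 at -1.30 (-4.08 to 0.45), and 70.3% of its exon bases lie under another gene. The 3 most abundant genes of the list were SERPINA1, the elastase inhibitor, at 0.036, C3 of complement at 0.24 and AGT, which encodes angiotensinogen, at -0.052. Of these, C3 lay above the upper quartile, 0.13, of the genes with at least 1000 counts. HP, at -0.85, and FGA, at 1.53, are both classed as positive acute phase genes and differed in opposite directions between these libraries. Of 14 negative acute phase genes, 13 passed, 12 lower and 1 higher, with a median of -0.61. Counting intervals lay wholly below 0 for 12, beside 25.7% of all genes compared and 3576 of the 10298 genes with at least 1000 counts. Past -1, where 4.90% of all genes lay, were FETUB (48 and 13 counts, -1.78), SERPINA7, which encodes thyroxine-binding globulin (5791 and 2311, -1.30), and the selenium carrier SELENOP (28343 and 13261, -1.07). AHSG, which encodes fetuin-A, stood at -0.89, and APOA1, the main apolipoprotein of high-density lipoprotein, at 0.039. Genes of the positive and of the negative class were thus both among those lower with 9-cis-RA.

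**Figure D5:**
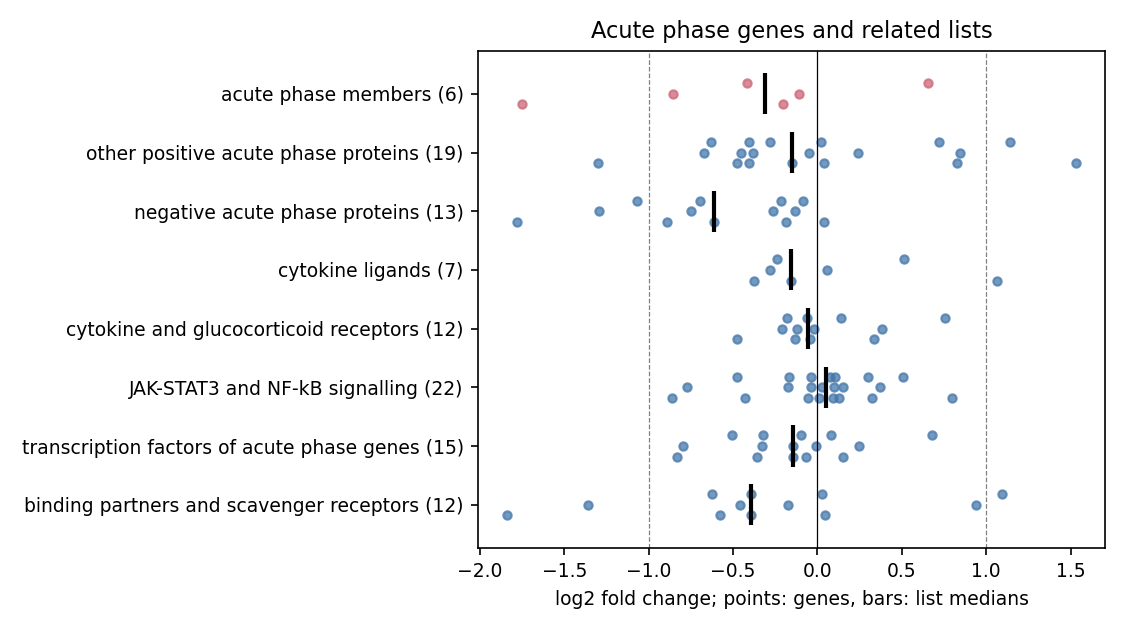
Log2 fold change of FFA + 9-cis-RA against FFA for each gene with at least 10 counts (points) in the acute phase members and the related lists, with a bar for each list's median and dashed lines at -1 and 1. The medians run from -0.61 for the negative acute phase genes to 0.052 for JAK-STAT3 and NF-κB signalling, and the members stand at -0.31.

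Of 15 genes for binding partners and scavenger receptors of the members, 12 passed, 4 higher and 8 lower, with a median of -0.39. For LBP, the lipopolysaccharide receptor CD14 had 9 and 20 counts (1.10, interval -0.020 to 2.50) and LY96, which encodes the MD-2 partner of TLR4, had 101 and 38 (-1.36). For the haem route of HP and HPX, HMOX1, which degrades haem, had 7806 counts in FFA and 14703 in FFA + 9-cis-RA (0.94), and LRP1, the receptor of haem-loaded hemopexin, had 10597 and 10741 (0.047). HMOX1 was thus higher in the library in which HP was lower, and LRP1 differed little. For serum amyloid A, the receptor SCARB1 stood at 0.029 and CD36, which also takes up fatty acids, had 346 and 94 counts (-1.84).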

How the data were processed

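RNA of 2 HepG2 libraries (FFA, FFA + 9-cis-RA; 1 per group) was sequenced. The authors deposited raw counts of fragments per gene, made with featureCounts version 2.0.1 on GRCh38 from read pairs with both ends mapped, with strand setting 2; reads with more than 1 mapping place or lying over more than 1 gene were left out, so paralogs and overlapping genes are undercounted. The aligner, the annotation release and the read length are not given in the sources used here. The exon lengths stand in the count files.

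Totals were 60821539 and 57669670 counts. Of 60623 entries, 42005 received a symbol. The size factors, 1.0096 (FFA) and 0.9905 (FFA + 9-cis-RA), came from DESeq2 1.42.0 in R 4.3.3, and TMM factors from edgeR 4.0.16. Log2 fold changes used normalized counts plus 1, a minimum of 10 counts over both libraries and thresholds of 1 and -1; a pseudocount understates changes of low genes. TPM used merged exon length. Exact 95% Clopper-Pearson intervals and a floor of 3 counts cover counting error only, and fragments without molecular identifiers are not independent molecules. Intervals, alignments and plots were made with scipy 1.17.1, Biopython 1.88, matplotlib 3.10.9, pandas 2.3.3 and numpy 2.4.6 under Python 3.11.15, and the scripts were tested on simulated data. Transcripts came from GENCODE release 29; promoters came from RefSeq.

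With 1 library per group, neither a model nor a p-value was possible. The members and lists were chosen with earlier results of these data known. Named genes were all 10 members, HPR, SAA2-SAA4 and SAA3P. Of each other list, the 3 with the highest mean normalized count and those past a threshold were named. IL6, IL1A, IL1B, IL22, TNFAIP3, SOCS3, CEBPD, EGR1, PTPRC and DCN, and TTR and TF among the hepatocyte markers, were named after their values were seen. Alternatives were other scalings, pseudocounts, count minimums and lengths, and leaving out mitochondrial genes.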

Additional observations from a re-analysis of the deposited data

How the results depend on the processing

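With no count minimum, 3 of the 10 members (LBP, SAA2 and SAA4) lay past the threshold in place of 1; with a minimum of 50 counts 0 of 5 did, and 0 did where the whole interval had to lie past it. Without mitochondrial genes the members' share was 0.0643% in FFA and 0.0571% in FFA + 9-cis-RA. All 24 values of the members under alternatives kept their sign. Of these, 2 left the counting interval, both with total counts as the scale: ORM1 at -0.16 and ORM2 at -0.058. That scale put the median of all genes at 0.029, and TMM at -0.00023. The members' median ran from -0.42, with the near-identical pairs summed, to -0.20, with a minimum of 50 counts and, chosen after seeing the data, with SAA4 left out. With the longest transcript as length, HPX and SAA4 changed places in FFA and CP and SAA4 in FFA + 9-cis-RA. With only the exon bases free of other genes as length, also chosen after seeing the data, SAA4 and HPX changed places in FFA + 9-cis-RA. No paired analysis was possible because each group has 1 library, and leaving out a library was not possible for the same reason. Depth limits SAA2, SAA4, HPX, LBP and CP, each with under 100 counts per library.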
